A study of Mus musculus with 6 samples.

Results

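The 71 genes described here encode regulators of the small GTPases RhoA, Rac and Cdc42 and their relatives, and they were taken by symbol alone from a table of 17313 genes. They comprised 32 RhoGAPs (the numbered Arhgap genes), 28 RhoGEFs with a Dbl domain (the numbered Arhgef genes with Vav1, Vav2, Vav3, Tiam1, Tiam2 and Prex1) and 11 DOCK genes. RNA came from macrophages cultured from the bone marrow of C57BL/6 mice. In all mice the Hdac2 alleles were flanked by loxP sites (Hdac2fl/fl), cells of the mouse lung carcinoma line LLC1 had been injected intravenously, and the marrow was taken on day 20. The 3 WT libraries were from mice without Cre. The 3 KO libraries were from mice with LysMCre, a Cre recombinase expressed from the lysozyme gene in myeloid cells, so that non-myeloid cells of the marrow would keep Hdac2. The age of the mice is not given in the labels, nor whether each library came from its own mouse, and the spread behind every p-value may therefore be partly technical.

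RhoA, Rac and Cdc42 are molecular switches that are active while they hold GTP and that control the actin cytoskeleton. GEFs load them with GTP, through the Dbl domain of the Arhgef, Vav, Tiam and Prex proteins or through the unrelated catalytic domain of the DOCK proteins, and RhoGAPs switch them off by speeding GTP hydrolysis. In leukocytes DOCK2, Vav and P-Rex proteins feed Rac and serve migration and phagocytosis, whereas in fibroblasts and smooth muscle several GEFs for RhoA serve actomyosin contraction. From such general knowledge, but with earlier results of these data known, 14 members were listed as leukocyte-typical and 14 as mesenchymal. The other 43 were in neither list.

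Values are called scaled counts here, since the whole numbers in the table look like reads per gene after multiplication by a library factor and rounding (the factor is not stated), and the totals of the 6 libraries lay between 5704313 and 5837994. Within a group, values are given in the order of libraries 1, 2 and 3. Hdac2 was at 534, 482 and 518 in WT against 392, 387 and 375 in KO (means of 511 and 385), without overlap. The 10 macrophage markers summed to between 12720 and 13685 in WT and between 11495 and 12242 in KO, and 9 of them had the lower mean in KO. The libraries did not divide by genotype alone. Xist, which marks the inactive X chromosome of female cells, was at 5243 in WT 1, at 0 and 74 in WT 2 and WT 3 and at 3298 or more in every KO library. The Y-linked Kdm5d was at 34, 473 and 482 in WT against 5, 0 and 0 in KO, and Ddx3y, Eif2s3y and Uty were likewise high in WT 2 and WT 3, low in WT 1 and at 10 or less in KO. WT 2 and WT 3 thus had the pattern of male cells and KO that of female cells. WT 1 had the female pattern with a little Y-linked RNA. Its Hdac2 value lay with those of the other WT libraries, and its label could not otherwise be checked from the sources used here. The sum of 14 fibroblast and marrow stroma markers was 15157 in WT 1 but 6429 and 6895 in the other WT libraries, and 19765, 18108 and 15517 in KO 1, KO 2 and KO 3. WT 1 thus stood nearer to KO than to the other WT libraries in these markers too. Smooth muscle and pericyte markers summed to 2701, 1268 and 1389 in WT against 3028, 3010 and 3133 in KO, and osteoclast markers to between 1893 and 3334 in WT and between 1320 and 1654 in KO. The endothelial sum was 819, 1469 and 875 in WT against 489, 556 and 806 in KO, most of it Vwf, with Tek and Emcn at 6 or less. Of the 3 tested endothelial markers only Vwf had a lower mean in KO. Kdr (mean of 85.3 in WT and 115 in KO) and Cdh5 (25.0 and 36.7) had a higher one, and all 3 overlapped between the groups. Blood progenitor markers summed to between 261 and 396 but did not move together. Hoxa9 was at 57, 11 and 11 in WT against 101, 91 and 73 in KO, and Gata2 and Meis1 were also higher in KO without overlap. Cd34 was lower without overlap, at 224, 164 and 249 in WT against 158, 137 and 130 in KO, and Kit was too low to test. Few markers of other blood cells had a row. Markers of T, B and NK cells (2 of 8 with a row) summed to 60 at most and those of dendritic cells (2 of 6) to 52. Those of neutrophils (1 of 7) summed to 26 and of megakaryocytes (2 of 4) to 20, and no erythroid marker had a row.

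Of the 71 members, 67 reached a scaled count of 10 in at least 3 libraries and were tested. Arhgap8, Arhgap20, Arhgef26 and Arhgef33 did not, and none of them exceeded 15 in any library. No member passed the limma test of KO against WT after Benjamini-Hochberg adjustment over 13260 genes. The smallest adjusted p among members was 0.158, and 0% of all tested genes were called in either direction. Hdac2 itself did not pass either (log2 -0.41 ± 0.057, SE, limma adjusted p = 0.158). Failing this threshold therefore does not show that a member was unchanged. At an unadjusted p under 0.05, 17 members were higher in KO (25.4%, against 14.7% of all tested genes) and 12 were lower (17.9%, against 9.68%). Members that share the adjusted p of 0.158 differed in unadjusted limma p, for example 0.00159 for Arhgef10 and 0.0192 for Vav2. The lowest KO value exceeded the highest WT value in 18 members (26.9%, against 16.1% of all tested genes), and the highest KO value was under the lowest WT value in 14 (20.9%, against 13.4%). The median log2 difference was 0.03 over the members and -0.00 over all tested genes. The members lay to both sides, and the 2 lists lay apart. The median was -0.12 for the 14 leukocyte-typical members and 1.08 for the 13 tested mesenchymal members. The latter is the value of Arhgef40, and the next lower value in that list is 0.36 (Arhgap23).

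These counts depended on WT 1. Without it, 16 members were higher past the adjusted threshold (23.9%, against 12.8% of all tested genes) and 9 were lower (13.4%, against 5.07%). The remaining WT libraries had little Xist and high Y-linked RNA, so genotype and sex cannot be told apart there. With WT 2 and WT 3 left out instead, and WT 1 assumed to vary like the KO libraries, no member passed the adjusted threshold (0% of all tested genes in either direction). At an unadjusted p under 0.05, 7 members were then higher and 0 lower, against 5.17% and 1.06% of all tested genes. The 7 were Arhgap23, Arhgap35, Arhgef5, Arhgef10, Arhgef17, Arhgef25 and Dock6. In 47 members (70.1%, against 66.4% of all tested genes) WT 1 was nearer to the KO mean than to the mean of WT 2 and WT 3.

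**Figure D1:**
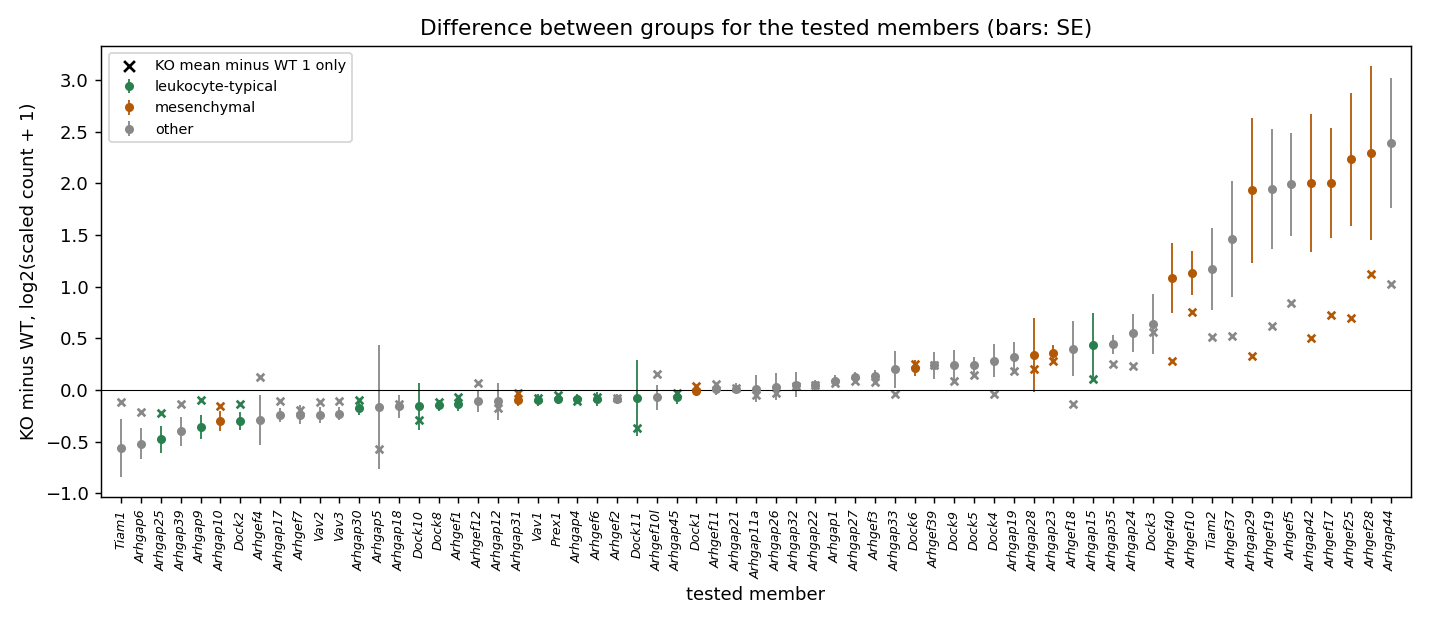
Difference between KO and WT on the log2(scaled count + 1) scale for 65 of the 67 tested members in order of size, with the SE of the fit as bars and the KO mean minus WT 1 alone as crosses. Leukocyte-typical members lie between -0.48 and 0.43 and mesenchymal members between -0.30 and 2.29, and the crosses of the highest members lie below their points.

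Levels were compared between genes per kilobase of exon, as means of the WT libraries. Among the DOCK genes Dock8 (295 scaled counts per kilobase) and Dock2 (262) led, ahead of Dock1 (115), Dock10 (107) and Dock11 (97.9). Dock5 (63.4), Dock4 (41.5) and Dock6 (31.0) followed, and Dock9 (6.09) and Dock3 (0.85) were far lower. The 2 highest are genes of blood cells, and Dock1, which is expressed in many tissues, came next. Among the RhoGEFs Vav1 had the highest level per kilobase (362), ahead of Prex1 (207), Arhgef1 (187) and Arhgef2 (176). Among the RhoGAPs Arhgap45 (374), Arhgap25 (361) and Arhgap10 (322) led, ahead of Arhgap30 (216). Of these, Arhgap10 had been listed as mesenchymal.

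Among the leukocyte-typical DOCK genes, Dock2 encodes the Rac activator that lymphocytes and neutrophils need for directed migration. It stood at 2675, 3305 and 3014 scaled counts in WT against 2355, 2414 and 2524 in KO (2998 ± 315 against 2431 ± 85.8, SD, n = 3), a log2 difference of -0.30 ± 0.085 (SE, limma adjusted p = 0.158). The groups were separate, KO lower, and WT 1 was the WT library closest to KO. Dock8, a Cdc42 activator whose loss causes an immunodeficiency in humans, was at 2896, 3035 and 2969 in WT against 2636, 2579 and 2812 in KO (limma adjusted p = 0.17). Its groups did not overlap either, with a KO to WT ratio of 0.902. Dock10 and Dock11, which act on Cdc42, overlapped between the groups. Dock10 was at 2079, 1383 and 2383 in WT against 1881, 1929 and 1355 in KO, and Dock11 at 1056, 545 and 1114 and at 996, 1038 and 530. In both genes WT 2 and KO 3 were the low libraries.

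Among the leukocyte-typical RhoGEFs the differences were small. Vav1, the GEF of hematopoietic cells that acts below antigen and Fc receptors, was at 1313, 1412 and 1278 scaled counts in WT against 1188, 1248 and 1285 in KO, with overlap. Prex1, a Rac GEF switched on by phosphoinositides and G protein subunits, was at 2081, 2231 and 2077 in WT against 1964, 2002 and 2050 in KO. Those ranges were barely separate, and the log2 difference was -0.09 ± 0.049 (SE, limma adjusted p = 0.329). Arhgef1, which couples G protein-coupled receptors to RhoA, was at 1380, 1557 and 1409 in WT against 1274, 1296 and 1370 in KO. Its ranges were separate too, with WT 1 next to KO 3. Arhgef6, which encodes alpha-PIX, a GEF for Rac and Cdc42, was at 1072, 1045 and 1142 in WT against 1032, 1082 and 950 in KO, with overlap.

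Among the leukocyte-typical RhoGAPs, Arhgap25, which encodes a Rac GAP of phagocytes, had the largest difference. It stood at 1322, 1832 and 1643 scaled counts in WT against 1072, 1067 and 1268 in KO (1599 ± 258 against 1136 ± 115, SD, n = 3), a log2 difference of -0.48 ± 0.13 (SE, limma adjusted p = 0.158). KO was lower without overlap, and WT 1 was again the WT library closest to KO. Arhgap9, a GAP of hematopoietic cells, was at 597, 836 and 731 in WT against 540, 551 and 582 in KO, separate in the same order. Arhgap30 was at 1756, 1991 and 1809 in WT against 1610, 1591 and 1701 in KO, also separate, with a KO to WT ratio of 0.882. Arhgap45 (1632, 1805 and 1582 in WT against 1509, 1628 and 1657 in KO) and Arhgap4 (903, 920 and 858 in WT against 807, 860 and 849 in KO) overlapped. Arhgap15, a Rac GAP, had a higher mean in KO than in WT, with overlap, at 277, 142 and 279 in WT against 353, 335 and 227 in KO.

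In all, 13 of the 14 leukocyte-typical members had a lower mean in KO (6750 of all 13260 tested genes did). Of these, 5 were lower at an unadjusted p under 0.05 (9.68% of all tested genes), and in 7 the groups did not overlap (13.4% of all tested genes had KO below WT). Without WT 1, 3 of the 14 fell past the adjusted threshold (5.07% of all tested genes), namely Arhgap9 (limma adjusted p = 0.0112), Arhgap25 (0.0114) and Dock2 (0.016). Most of the list is abundant, and abundant genes in general were slightly lower in KO. Of the 1427 tested genes with a mean scaled count of at least 1000, 77.2% were lower in KO with a median log2 difference of -0.09, and 16 of the 20 members in that range were lower with a median of -0.10. Among the 3421 genes with a mean under 100, 32.4% were lower. After cyclic loess, which takes out differences that depend on abundance, the leukocyte-typical median was -0.02, with 11 lower and 3 higher. Arhgap25 was then at -0.40, Arhgap9 at -0.32 and Dock2 at -0.17, while Dock8 was at -0.02, and Prex1 and Arhgap45 each turned to 0.03. In bulk RNA, fewer cells of a type and less RNA per cell cannot be told apart. The macrophage markers were lower in KO beside these genes (median log2 difference -0.18), and their part in the result was not tested.

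**Figure D2:**
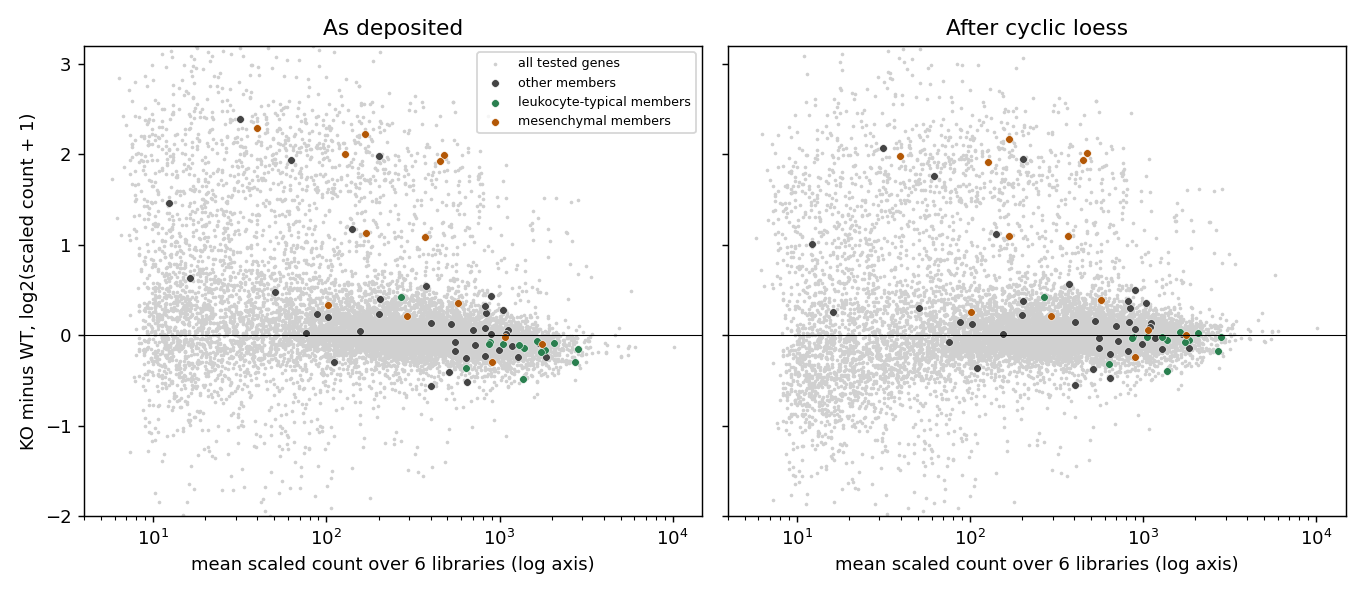
KO minus WT on the log2(scaled count + 1) scale against the mean scaled count (log axis), for all 13260 tested genes in grey and for the members in colour, as deposited (left) and after cyclic loess (right), with the vertical axis limited so that a few grey points fall outside it. The leukocyte-typical median moves from -0.12 to -0.02 between the panels, while the mesenchymal median is 1.08 and 1.09.

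Promoter sequences are shown for members that separated the groups, because most members of a list lay to the same side and because Sp1, named beside HDAC2 in the title of the study, binds GC boxes. Each is the stretch of 250 bases before the RefSeq transcript start (GRCm38.p6), written 5′ to 3′ on the strand of the gene. They belong to the 2 members of each list with the largest difference among those with a mean of at least 100, separate groups and a sequence in the reference table. Capitals mark matches on either strand, overlaps included, to the GC box GGGCGG, the ETS core GAGGAA of the PU.1 type or the TEAD core GGAATG.
Arhgap25, chr6:87533260-87533509, minus strand: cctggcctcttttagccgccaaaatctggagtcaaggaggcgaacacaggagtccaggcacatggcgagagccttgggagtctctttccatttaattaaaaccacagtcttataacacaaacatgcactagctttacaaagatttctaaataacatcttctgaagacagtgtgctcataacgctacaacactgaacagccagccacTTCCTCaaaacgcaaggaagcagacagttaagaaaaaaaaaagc
Dock2, chr11:34783906-34784155, minus strand: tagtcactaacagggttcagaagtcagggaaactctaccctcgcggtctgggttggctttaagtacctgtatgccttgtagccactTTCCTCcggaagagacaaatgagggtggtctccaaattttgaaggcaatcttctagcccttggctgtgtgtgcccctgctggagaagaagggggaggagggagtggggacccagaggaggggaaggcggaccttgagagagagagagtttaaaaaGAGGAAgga
Arhgap42, chr9:9239028-9239277, minus strand: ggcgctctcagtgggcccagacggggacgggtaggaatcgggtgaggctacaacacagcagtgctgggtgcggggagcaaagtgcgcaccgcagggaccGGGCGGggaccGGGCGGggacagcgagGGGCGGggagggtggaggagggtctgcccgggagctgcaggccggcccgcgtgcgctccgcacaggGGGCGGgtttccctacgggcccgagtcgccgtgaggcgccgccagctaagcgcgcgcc
Arhgef40, chr14:51984583-51984832, plus strand: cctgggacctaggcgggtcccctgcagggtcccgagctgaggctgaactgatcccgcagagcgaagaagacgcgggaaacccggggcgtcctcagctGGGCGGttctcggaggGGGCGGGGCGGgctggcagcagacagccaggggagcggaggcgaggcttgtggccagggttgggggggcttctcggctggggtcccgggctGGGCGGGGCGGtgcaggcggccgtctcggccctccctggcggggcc

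The windows of Arhgap25 and Dock2 held 1 and 2 ETS cores and 0 GC boxes. Those of Arhgap42 and Arhgef40 held 4 and 5 GC boxes and 0 ETS cores. The reference table had 87 windows for 54 of the 71 members, several of them alternative starts of 1 gene. The GC box was in 42 of these 87 windows (48.3%) and in 32.7% of all 32851 windows. It was in 9 of 10 windows of 8 mesenchymal members and in 9 of 20 windows of 13 leukocyte-typical members. The ETS core was in 3 of the 10 and 6 of the 20, against 23.3% of all windows, and the TEAD core in 1 of the 10 and 0 of the 20, against 12.6%. Such a match describes the letters in the window and is not evidence of binding.

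Among the mesenchymal RhoGEFs, Arhgef17, which encodes a RhoA GEF of cell junctions, stood at 438, 120 and 111 scaled counts in WT against 847, 704 and 632 in KO (223 ± 186 against 728 ± 109, SD, n = 3), a log2 difference of 2.0 ± 0.53 (SE, limma adjusted p = 0.158). KO was higher without overlap, and WT 1 lay between WT 2 and WT 3 on one side and KO on the other. Arhgef25, which links Gq-coupled receptors to RhoA, was at 159, 37 and 27 in WT against 309, 265 and 211 in KO (log2 2.23 ± 0.64, limma adjusted p = 0.158). WT 1 was intermediate again. Against WT 1 alone the log2 differences were 0.72 for Arhgef17 and 0.70 for Arhgef25.

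Arhgef10, a RhoA GEF tied to nerve conduction in humans, was at 136, 82 and 101 scaled counts in WT against 266, 234 and 194 in KO, separate, with a KO to WT ratio of 2.18. Arhgef40 was at 401, 191 and 158 in WT against 540, 488 and 440 in KO, also separate, with a ratio of 1.96. WT 1 was nearer to KO in Arhgef40, where the log2 difference from WT 1 alone was 0.28, than in Arhgef10, where it was 0.75. Arhgef28, a RhoA GEF that also binds RNA, was low, at 23, 9 and 4 in WT against 130, 53 and 19 in KO. KO 3 lay below WT 1, so its groups overlapped.

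Among the mesenchymal RhoGAPs, Arhgap29, which acts on RhoA, was at 517, 71 and 131 scaled counts in WT against 796, 704 and 486 in KO (240 ± 242 against 662 ± 159, SD, n = 3), a log2 difference of 1.93 ± 0.70 (SE, limma adjusted p = 0.173). WT 1 lay above KO 3. Arhgap42, a GAP that restrains RhoA in smooth muscle and so lowers blood pressure in mice, was at 132, 20 and 36 in WT against 228, 215 and 133 in KO. The groups were separate, but WT 1 and KO 3 nearly touched. Arhgap28 was at 94, 90 and 73 in WT against 181, 105 and 66 in KO, with overlap.

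In Arhgap23 and Dock6, as in Arhgef10, WT 1 stood nearer to the other WT libraries than to KO. Arhgap23 was at 532, 529 and 453 scaled counts in WT against 661, 642 and 630 in KO (505 ± 44.8 against 644 ± 15.6, SD, n = 3), a log2 difference of 0.36 ± 0.075 (SE, limma adjusted p = 0.158). Dock6, which encodes an activator of Rac and Cdc42, was at 265, 296 and 256 in WT against 306, 310 and 329 in KO. Neither gene overlapped between the groups, and against WT 1 alone the log2 differences were 0.28 and 0.25.

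Arhgap10, Arhgap31 and Dock1 went against the name of the list. These 3 were at 500 or more in every library, and none was higher in KO. Arhgap10, a GAP for RhoA and Cdc42, was at 898, 1105 and 978 scaled counts in WT against 784, 755 and 879 in KO (log2 -0.30 ± 0.095, limma adjusted p = 0.158). Arhgap31, a GAP for Rac and Cdc42, was at 1740, 1948 and 1789 in WT against 1667, 1715 and 1727 in KO. Both were separate, with KO below WT, though Arhgap31 turned to 0.01 after cyclic loess. Dock1, the Rac activator that works with ELMO proteins in the engulfment of dying cells, was at 1037, 1100 and 1093 in WT against 1085, 1066 and 1045 in KO, with overlap. Arhgap20 was too low to test, at 3, 1 and 2 in WT against 2, 15 and 0 in KO.

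In all, 10 of the 13 tested mesenchymal members had a higher mean in KO (6510 of all 13260 tested genes did), 9 of them at an unadjusted p under 0.05 (14.7% of all tested genes). The groups were separate in 9, with KO higher in 7 and lower in 2 (16.1% and 13.4% of all tested genes). In 9 of the 13 every KO library lay above WT 2 and WT 3, and in 9 WT 1 lay above both. The shares of all tested genes with these patterns were not computed, so the counts cannot be called particular to the list. Without WT 1, 7 rose past the adjusted threshold (Arhgap23, Arhgap29, Arhgap42, Arhgef10, Arhgef17, Arhgef25 and Arhgef40) and Arhgap10 fell, against 12.8% and 5.07% of all tested genes. The median log2 difference was 1.32 without WT 1 and 0.28 against WT 1 alone. As a deviation from each gene's mean over the libraries, the list's median was 0.01 in WT 1 but -0.81 and -0.61 in the other WT libraries, and 0.78, 0.54 and 0.17 in KO 1, KO 2 and KO 3. The fibroblast and stroma markers moved with these genes. All 12 tested of the 14 markers had a higher mean in KO, with a median log2 difference of 1.14 that was 0.30 against WT 1 alone, and Lum and Lepr were at 11 or less in every library. The smooth muscle markers did likewise, with 7 of 7 higher and a median of 1.34, which was 0.30 against WT 1 alone. The part of such cells in the result was not tested.

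**Figure D3:**
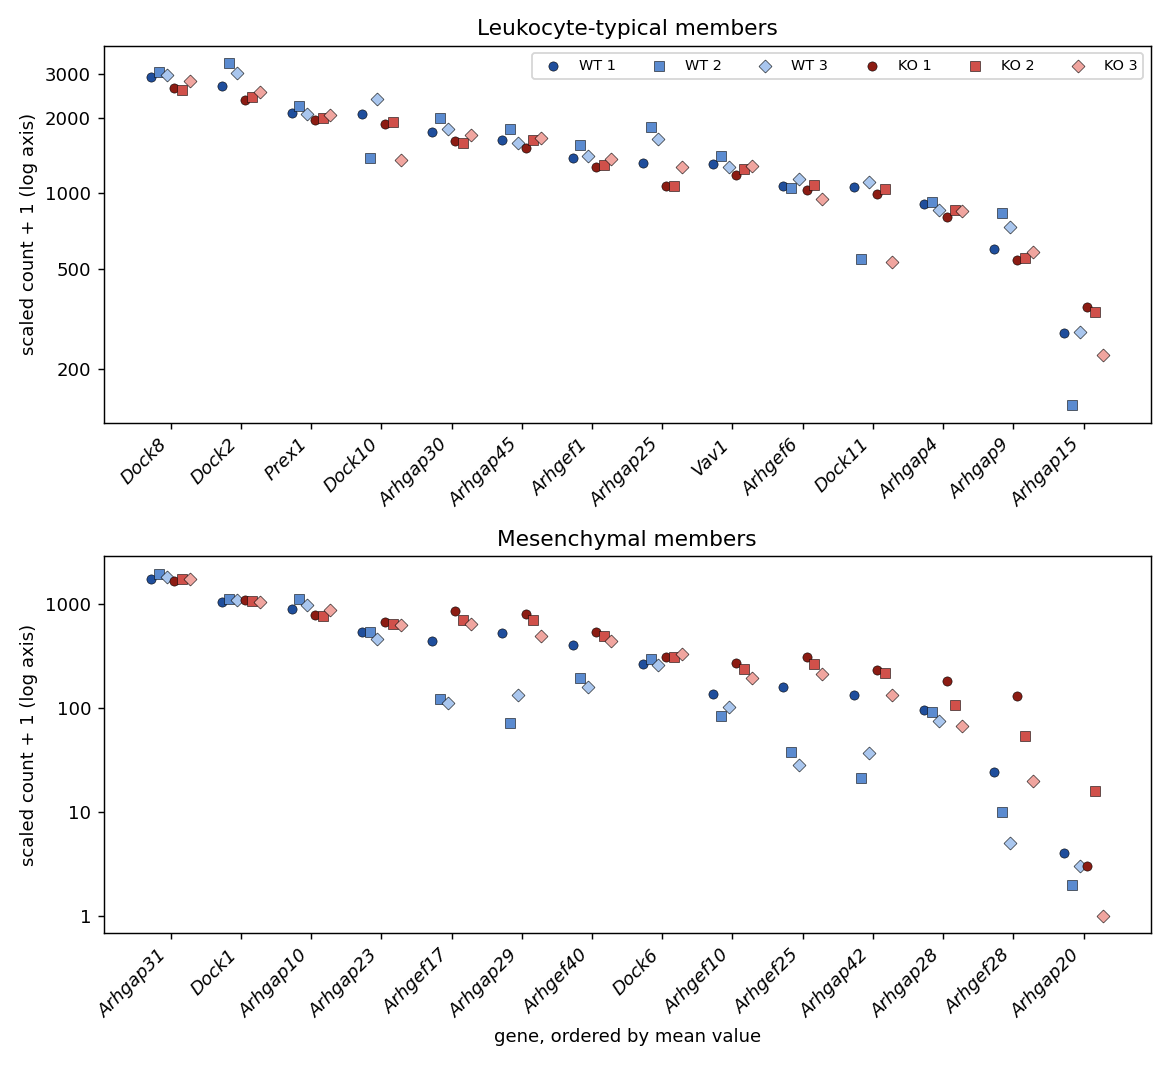
Scaled counts + 1 (log axis) in each of the 6 libraries for the leukocyte-typical members (top) and the mesenchymal members (bottom), ordered by mean, with WT in blue and KO in red. In the lower panel Arhgef17, Arhgap29, Arhgef40, Arhgef25 and Arhgap42 show WT 2 and WT 3 far below the KO libraries and WT 1 nearer to KO, while Dock1 is level and Arhgap31 and Arhgap10 lie slightly lower in KO.

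**Figure D4:**
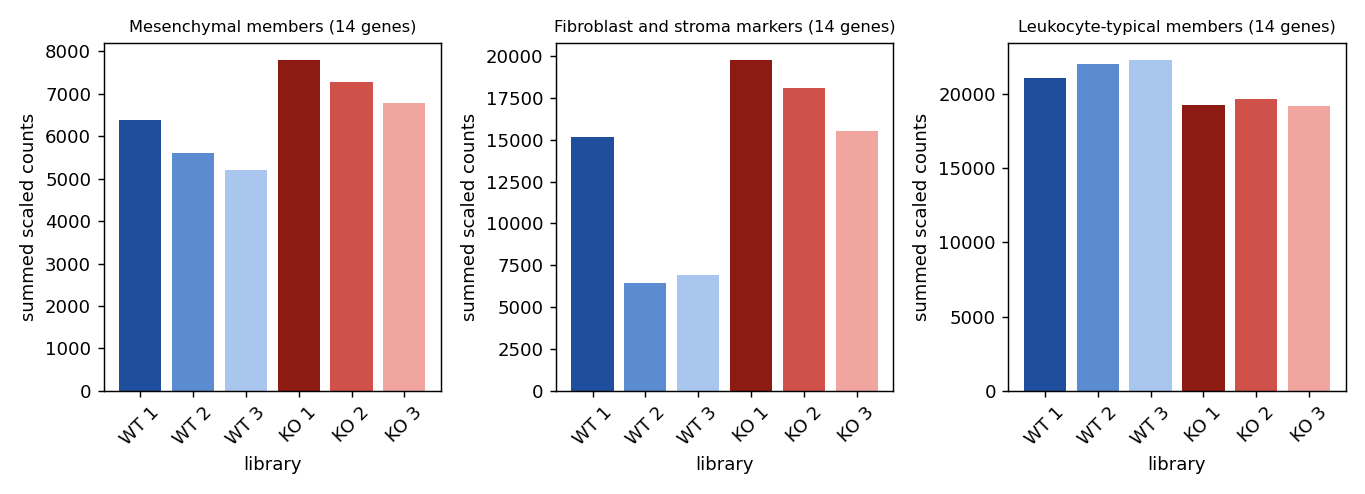
Summed scaled counts per library of the 14 mesenchymal members, the 14 fibroblast and stroma markers and the 14 leukocyte-typical members, each bar 1 library. The mesenchymal sum runs from 5212 to 6375 in WT and from 6791 to 7802 in KO, the marker sum puts WT 1 at 15157 next to KO 3 at 15517, and the leukocyte-typical sum runs from 21039 to 22288 in WT and from 19160 to 19620 in KO.

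Of the 43 members in neither list, 40 were tested and 26 had a higher mean in KO, with a median log2 difference of 0.06. At an unadjusted p under 0.05, 8 were higher and 6 were lower (14.7% and 9.68% of all tested genes). Several members of this group with low values had large differences. Arhgef5, a RhoA GEF regulated by Src, stood at 170, 44 and 59 scaled counts in WT against 390, 309 and 237 in KO (91.0 ± 68.8 against 312 ± 76.5, SD, n = 3), a log2 difference of 1.99 ± 0.50 (SE, limma adjusted p = 0.158). The groups were separate, and WT 1 was intermediate, with a log2 difference from WT 1 alone of 0.84. Arhgef19, a RhoA GEF of noncanonical Wnt signalling, was at 60, 16 and 13 in WT against 104, 110 and 70 in KO. Tiam2, a Rac GEF, was at 131, 91 and 47 in WT against 247, 187 and 142 in KO. Both were separate, again with WT 1 next to KO. Arhgap44, a GAP for Rac and Cdc42, was at 24, 5 and 5 in WT against 72, 47 and 36 in KO, the largest log2 difference among the tested members (2.39 ± 0.63, limma adjusted p = 0.158). Arhgef37 (12, 2 and 7 in WT against 18, 18 and 17 in KO) and Dock3, a relative known from neurons (13, 10 and 14 in WT against 18, 26 and 16 in KO), were separate at values near the limit for testing.

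Among RhoGAPs with higher values, Arhgap35 and Arhgap24 were above WT in every KO library. Arhgap35, which encodes a p190 RhoGAP that lowers RhoA activity on adhesion, was at 861, 723 and 696 scaled counts in WT against 1107, 984 and 985 in KO (760 ± 88.5 against 1025 ± 70.7, SD, n = 3), a log2 difference of 0.44 ± 0.096 (SE, limma adjusted p = 0.158). Against WT 1 alone it was 0.25. Arhgap24, which encodes a Rac GAP that binds filamin, was at 377, 233 and 313 in WT against 462, 460 and 408 in KO, with a ratio of 1.44. On the other side, Arhgap6, a GAP for RhoA, was at 611, 879 and 801 in WT against 482, 514 and 590 in KO (764 ± 138 against 529 ± 55.5, SD, n = 3), a log2 difference of -0.52 ± 0.15 (SE, limma adjusted p = 0.158). Arhgap17, a GAP for Cdc42 and Rac of epithelial junctions, was at 1266, 1475 and 1430 in WT against 1130, 1194 and 1199 in KO. Both were separate, with WT 1 the WT library nearest to KO. Arhgap21, a GAP for Cdc42 at the Golgi, was at 1084, 1039 and 1152 in WT against 1078, 1126 and 1098 in KO, with overlap.

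Among RhoGEFs with higher values, Vav2, the widely expressed relative of Vav1, was at 638, 733 and 718 scaled counts in WT against 566, 562 and 634 in KO (log2 -0.24 ± 0.078, limma adjusted p = 0.158). Arhgef7, which encodes beta-PIX, a GEF that binds PAK and GIT proteins, was at 1916, 2199 and 1881 in WT against 1579, 1617 and 1872 in KO (limma adjusted p = 0.184). In both genes KO lay below WT, though in Arhgef7 WT 3 and KO 3 nearly touched. Arhgef2, a microtubule-bound RhoA GEF, was at 1719, 1794 and 1678 in WT against 1607, 1583 and 1699 in KO. Arhgef12, a RhoA GEF below G protein-coupled receptors, was at 1068, 1405 and 1203 in WT against 1132, 1073 and 1172 in KO. Both overlapped.

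Dock5, a relative of Dock1 and Dock2 needed for bone resorption by osteoclasts, was at 824, 689 and 800 scaled counts in WT against 897, 937 and 897 in KO (771 ± 72 against 910 ± 23.1, SD, n = 3), a log2 difference of 0.24 ± 0.076 (SE, limma adjusted p = 0.158). The groups did not overlap, while of 5 tested osteoclast markers 4 had the lower mean in KO, and their part in the result was not tested. Among the DOCK genes that bind ELMO, the log2 difference was -0.30 for Dock2, -0.01 for Dock1, 0.24 for Dock5, 0.28 for Dock4 and 0.64 for Dock3, none past the adjusted threshold.

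By family, 6 RhoGAPs were higher and 7 lower at an unadjusted p under 0.05 among 30 tested. The counts were 9 and 3 among 26 RhoGEFs and 2 and 2 among 11 DOCK genes, next to 14.7% and 9.68% of all tested genes. The medians of the 3 families, 0.02, 0.07 and 0.06 on the log2 scale, were close to that of all tested genes. Of the members on the X chromosome, Arhgap4, Arhgef6 and Dock11 overlapped between the groups and Arhgap6 did not. The remaining 22 tested members had log2 differences between -0.56 and 0.40 and values between 66 and 1214. Of these, 0 were higher and 2 were lower at an unadjusted p under 0.05, namely Vav3 and Arhgap39. They comprised Arhgap1, Arhgap5, Arhgap11a, Arhgap12, Arhgap18, Arhgap19, Arhgap22, Arhgap26, Arhgap27, Arhgap32, Arhgap33, Arhgap39, Arhgef3, Arhgef4, Arhgef10l, Arhgef11, Arhgef18, Arhgef39, Dock4, Dock9, Tiam1 and Vav3. Vav3, the third Vav protein, was at 815, 925 and 923 in WT against 762, 732 and 771 in KO, on the same side as Vav2.

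A second arrangement of the libraries crossed the genotypes. WT 2 and KO 3 were the lowest pair in 8 of the 67 tested members (11.9%, against 12.9% of all tested genes), so the share was no larger than elsewhere, but the size was large in some. Arhgap5, which encodes the other p190 RhoGAP, stood at 692, 264 and 783 scaled counts in WT against 663, 697 and 217 in KO, and the mean of WT 2 and KO 3 was 0.339 of the mean of the other 4 libraries. The ratio was 0.511 in Dock11, 0.593 in Arhgap15 and 0.662 in Dock10. It was 0.726 in Arhgap12, 0.807 in Arhgap11a and 0.845 in Arhgap18. In Arhgap5, Dock11, Arhgap15 and Dock10, 1 library of each group thus set the spread. Without WT 2 and KO 3, 0 members passed the adjusted threshold (0% of all tested genes), and at an unadjusted p under 0.05, 11 were higher and 14 lower, against 8.93% and 11.1% of all tested genes. The medians were then -0.11 for the leukocyte-typical and 1.02 for the mesenchymal list.

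**Figure D5:**
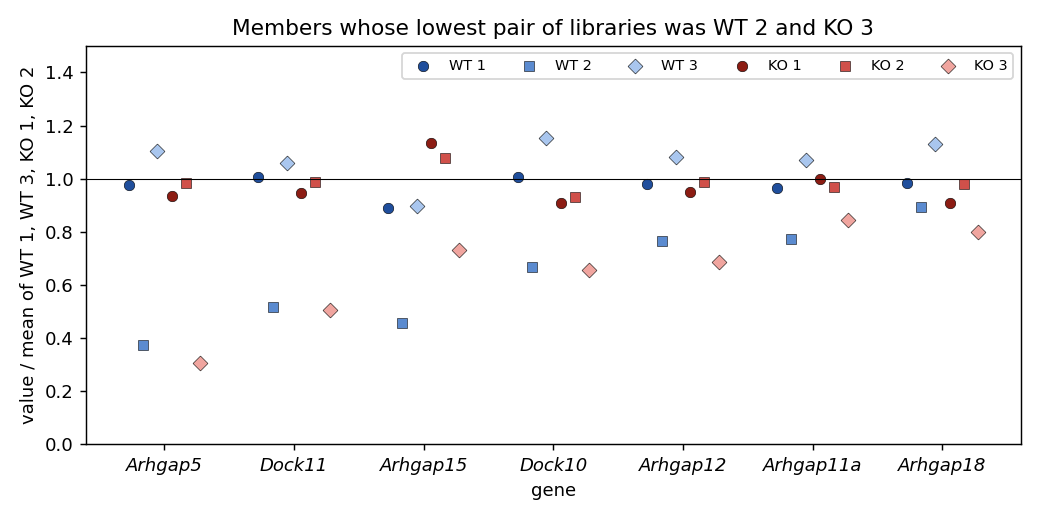
Value in each library divided by the mean of WT 1, WT 3, KO 1 and KO 2 for 7 of the members in which WT 2 and KO 3 were the lowest pair, ordered by the size of the drop. WT 2 and KO 3 lie well under the line at 1.0 in Arhgap5 and Dock11 and closer to it in Arhgap18.

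The rest of the pathway was read from lists of genes outside the membership. Of 18 GTPases of the family, all tested, 5 were higher and 3 lower at an unadjusted p under 0.05 (14.7% and 9.68% of all tested genes), and no gene of any pathway list passed the adjusted threshold. The main substrates overlapped or lay slightly lower in KO, with Rac1 at 1093, 1152 and 1096 scaled counts in WT against 1009, 1059 and 1064 in KO, and Cdc42 at 1196, 1296 and 1219 and at 1120, 1135 and 1135. Less abundant GTPases lay to both sides, with Rnd2 at 96, 134 and 106 in WT against 81, 85 and 80 in KO. The 3 with the smallest p lay above WT in KO. Rnd1, which opposes RhoA signalling, was at 55, 25 and 23 in WT against 90, 73 and 89 in KO (log2 1.37 ± 0.35, limma adjusted p = 0.158). Rhod, a GTPase of endosomes, was at 122, 77 and 91 in WT against 172, 166 and 137 in KO. Rhou, a Cdc42-like GTPase induced by Wnt signals, was at 68, 45 and 49 in WT against 128, 87 and 78 in KO. None of these 3 overlapped between groups. Of the 3 GDIs, which hold these GTPases in the cytosol, Arhgdia (1413, 1573 and 1408 in WT against 1315, 1346 and 1376 in KO) and Arhgdib (790, 799 and 752, and 732, 741 and 738) were slightly below WT. Arhgdig was low, at 13, 3 and 0 in WT against 36, 23 and 15 in KO.

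Of 12 adaptors and partners of DOCK and PIX proteins, 1 was higher and 0 lower at an unadjusted p under 0.05 (14.7% and 9.68% of all tested genes), and the median log2 difference was -0.04. The one was Bcar1, the p130Cas scaffold that joins integrin signals to CRK and DOCK1, at 287, 68 and 78 scaled counts in WT against 470, 399 and 406 in KO (log2 1.87 ± 0.54, limma adjusted p = 0.158). Its libraries stood in the order seen in Arhgef17, with WT 1 between, and the log2 difference from WT 1 alone was 0.56. Elmo1 (1320, 1313 and 1364 in WT against 1236, 1246 and 1279 in KO), the partner of DOCK1 and DOCK2, was slightly lower without overlap, and Elmo2 (884, 1085 and 1022 in WT against 854, 853 and 916 in KO) overlapped.

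Of 38 tested effectors of these GTPases, 9 were higher and 7 lower at an unadjusted p under 0.05 (14.7% and 9.68% of all tested genes), with a median log2 difference of 0.03. Wasf1, a WAVE protein that drives branched actin, was at 10, 11 and 8 scaled counts in WT against 32, 36 and 17 in KO, with WT 1 level with its group. Cyfip2, a WAVE complex subunit, was at 1517, 1953 and 1757 in WT against 1170, 1275 and 1418 in KO (log2 -0.43 ± 0.11, limma adjusted p = 0.158). Daam2, a formin, was at 31, 8 and 6 in WT against 131, 76 and 42 in KO. None of these 3 overlapped between the groups. Of 46 tested RhoGAPs and RhoGEFs named outside the numbered series, 16 were higher and 3 lower by the same rule, with a median of 0.06. Bcr, a GAP for Rac, was at 313, 277 and 248 in WT against 404, 384 and 413 in KO (log2 0.52 ± 0.095, limma adjusted p = 0.158). Plekhg3 was at 760, 671 and 719 in WT against 876, 879 and 867 in KO. Fgd1, a Cdc42 GEF mutated in a human skeletal syndrome, was at 57, 26 and 24 in WT against 122, 91 and 85 in KO. All 3 were separate, and WT 1 was with its own group in Plekhg3 and Bcr.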

How the data were processed

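Stranded mRNA-seq libraries were sequenced as single reads, per the labels' protocols. The deposited table holds 1 whole-number value per gene and library, which was treated as a score, a normalized unit that the authors rounded, because library totals were nearly equal and values were missing at regular steps (5 values under 60 never occurred in WT 2), as scaling and rounding would leave them. Tools named in the submitters' processing notes, without roles, are STAR 2.7.10a with mm10, featureCounts 2.0.3, DESeq2 1.36.0, Trimmomatic 0.39 and Picard 2.27.4. The depth in reads is unknown, so no counting interval is given and no count model was run.

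A gene was tested (13260 genes) where 3 or more libraries had a value of 10 or more. On log2(value + 1), limma 3.58.1 (R 4.3.3) with a trend in the prior variance compared KO with WT, group being the only term, in a two-sided test adjusted by Benjamini-Hochberg over all tested genes at 0.05. This scale understates the difference of low genes. Exonic lengths were unions of exons in GENCODE M21, read with Python 3.11.15 and pandas 2.3.3. The code was tested on simulated data.

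The members and lists were chosen with earlier results of these data known. Named were all listed members, X-linked members, the 12 other members with the largest difference without overlap, the 6 highest others, and up to 3 genes of each pathway list with the smallest p, with Rac1, Cdc42, Rnd2, Kdm5d, Vav3, Arhgap39, Arhgap5 and the others low in WT 2 and KO 3 added after their values were seen. Some members that the rule takes are not reported here. Alternatives were other scalings (upper quartile, TMM, cyclic loess), no filter or a mean of at least 100, a pseudocount of 5, each library left out, a replicate block, and WT 1 as the only WT library. Leaving out WT 2 with KO 3 was added after seeing the data.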

Additional observations from a re-analysis of the deposited data

How the results depend on the processing

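No member passed the adjusted threshold with all 6 libraries under any other scaling, filter or pseudocount. With each library left out in turn, the number past it ran from 0 to 25, from 0 to 16 higher and from 0 to 9 lower, and only the fit without WT 1 gave any. At an unadjusted p under 0.05, leaving out each library gave from 9 to 20 higher and from 5 to 15 lower, WT 1 as the only WT library gave 7 higher and 0 lower, and leaving out both WT 2 and KO 3 gave 11 higher. Members with KO higher without overlap numbered 28 without WT 2 and KO 3, and those with KO lower numbered 22 there, 9 with upper-quartile rescaling and 8 with cyclic loess. Smaller groups separate more easily, so the counts without WT 2 and KO 3 cannot be set against those from all 6 libraries. The shares of all tested genes without overlap were not computed for these settings. The leukocyte-typical median was -0.02 with cyclic loess, and the mesenchymal median 0.28 with WT 1 as the only WT library and 0.72 with no filter or a mean of at least 100. The 0.72 came from the make-up of the list, since no filter added Arhgap20 (0.33) and the mean of at least 100 dropped Arhgef28 (2.29). Either change put the median between Arhgap23 (0.36) and Arhgef40 (1.08). The cause of the other shifts was not tested. Of 640 values for 43 named members under 15 settings, 21 newly passed the threshold, all without WT 1, and 19 in 10 members had the opposite sign. These were 0.03 for Prex1, 0.03 for Arhgap45, 0.01 for Arhgap31, 0.01 for Arhgef2 and 0.06 for Dock1 with cyclic loess, and -0.00 for Arhgap21 with TMM. With WT 1 as the only WT library they were 0.07 for Arhgef12 and 0.04 for Dock1, and without WT 2 and KO 3 they were -0.02 for Arhgap21 and 0.01 for Dock1. With 1 library left out they were 0.00 for Dock10 (without WT 3 or KO 3, range from -0.39 to 0.00), -0.02 and -0.00 for Arhgap21 (WT 2 and KO 2), 0.00 for Dock1 (WT 2, range from -0.04), 0.07, 0.11 and 0.24 for Dock11 (WT 1, WT 3 and KO 3, range from -0.41 to 0.24) and -0.03 for Arhgap28 (KO 1, range to 0.69).

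Libraries with the same number did not all deviate together. The correlation was 0.53 between WT 1 and KO 1, but -0.36 and 0.02 for numbers 2 and 3. The numbers were therefore not taken to pair the libraries, and WT 2 correlated best with KO 3 (0.62). With the replicate block 0 members passed the adjusted threshold, and 17 were higher and 10 lower at an unadjusted p under 0.05. The shares of all tested genes were not computed for that fit. With 3 libraries a group, differences smaller than the spread between libraries were not detectable, and larger ones could also fail. Hdac2 did not overlap between the groups and yet did not pass the adjusted threshold with all 6 libraries (limma adjusted p = 0.158).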
